A study of Mus musculus with 12 samples.

Results

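The comparison set the hippocampal small RNA libraries made late after electroconvulsive shock (ECS) against those made early after it. The 4 late libraries came from mice killed 6 h and 24 h after ECS and the 4 early libraries from mice killed 0.5 h and 1 h after it, so that 8 of the 12 libraries of the series entered. Each library was built from the hippocampus of 1 male mouse of strain C57BL/6NCrl, aged 6 to 8 weeks per the methods of the study, and all 8 mice received ECS. No library of an untreated mouse entered, so each difference is one between times after ECS and none is one from rest. The libraries belong to the study's first time course (0.5h-1, 1h-1, 6h-1 and 24h-1) and to its second (0.5h-2, 1h-2, 6h-2 and 24h-2), and each time course gave 2 early and 2 late libraries. The unit counted was the hairpin arm, the 5′ or the 3′ side of a miRNA precursor (5p or 3p). Of 996 arms with any count in these libraries, the 443 with at least 10 counts in at least 2 of them were tested.

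ECS passes a brief current through the brain and makes neurons fire together, and the first hours after it are those of immediate-early gene transcription, whereas later hours follow the second wave of plasticity genes. A miRNA is cut from its hairpin by Drosha and Dicer, and 1 arm is loaded on an Argonaute protein, where it represses mRNAs that pair with its seed (bases 2 to 8). miRNAs with the same seed can bind the same sites. In adult brain, let-7 miRNAs, miR-124 and miR-128 are known as abundant, and miR-132, miR-212 and miR-134 as miRNAs whose transcription or function is tied to neuronal activity.

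No arm passed the test in the late against early comparison. All 443 arms had an edgeR adjusted p of at least 0.978, with 0% called, and DESeq2 also called 0%, with a smallest adjusted p of 0.20. At an unadjusted p under 0.05 edgeR gave 6 arms, 1.35% of those tested, and DESeq2 gave 11. In 0% of arms did all 4 late libraries lie above, or all 4 below, the 4 early ones. Each arm was expressed in CPM, its counts per 1000000 miRNA counts of the library after TMM scaling, a measure that cannot show a change shared by all miRNAs. The fitted log2 fold change lay above 0 for 196 arms (44.2%) and below 0 for 247, with a median of -0.096. Scaling by total counts alone moved that median to -0.40 and the arms by a median of -0.28, so directions near 0 depend on the scaling. The 95% intervals were wide, reaching a median of 1.37 to either side on the log2 scale, and 261 of the 443 intervals lay within a 4-fold change either way. The interval of 2 arms lay within 2-fold, but the standard errors (SE) behind the intervals can be unstable where a log2 fold change is near 0. For example, miR-1912-3p had a log2 fold change of -0.0024 ± 0.18 SE. Its log2 CPM differed from the early mean of its time course by -0.46 (6h-1), -2.59 (24h-1), -0.085 (6h-2) and 3.71 (24h-2). Small changes were therefore mostly not detectable at this depth and number of libraries, which is not the same as absent.

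The sequences below are RefSeq mature miRNAs (GRCm38.p6), with the seed in capitals. Of 60 arms looked up, 49 had an entry. The first set is shown because let-7 arms were the most abundant and share 1 seed.
let-7f-5p: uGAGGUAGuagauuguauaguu
let-7g-5p: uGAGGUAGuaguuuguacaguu
let-7c-5p: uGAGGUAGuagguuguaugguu
The second set holds other abundant arms, of which miR-29a and miR-29c share a seed.
miR-29a-3p: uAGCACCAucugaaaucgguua
miR-29c-3p: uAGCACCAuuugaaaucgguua
miR-128-3p: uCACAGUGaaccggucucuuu
miR-101a-3p: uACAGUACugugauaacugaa
The third set holds arms with the smallest unadjusted p, and ranges from the GC-rich, repetitive miR-341 to the AU-rich miR-301a (annotated as Mir301 in GENCODE).
miR-341-3p: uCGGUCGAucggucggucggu
miR-30c-5p: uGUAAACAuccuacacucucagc
miR-1843a-3p: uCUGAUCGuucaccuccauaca
miR-1843b-3p: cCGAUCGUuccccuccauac
miR-301a-3p: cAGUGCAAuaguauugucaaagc
miR-3095-3p: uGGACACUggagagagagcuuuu
The last set holds the 3 arms that DESeq2 called between 24 h and 6 h.
miR-1298-5p: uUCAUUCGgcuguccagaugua
miR-674-5p: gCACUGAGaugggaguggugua
miR-142a-5p: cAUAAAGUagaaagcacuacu
The seed shown is that of RefSeq. The most abundant tag of miR-142a-5p and of miR-1843b-3p began 2 bases before the RefSeq start, and that of miR-101a-3p 1 base before it, so that the main reads of these 3 arms carry another seed. For miR-341-3p the most abundant tag began at the RefSeq start but held only 29.4% of its counts. Its next 3 tags (21.8%, 21.1% and 17.4%) began further in and also carry another seed. miR-341-3p lies at chr12:109611556-109611576 on the plus strand, in an intron of the noncoding gene Rian, and miR-1298-5p at chrX:147064918-147064939 on the plus strand, in an intron of Htr2c, the gene of a serotonin receptor. miR-142a-5p lies at chr11:87756867-87756887 on the plus strand, in an intron of the noncoding gene Mir142hg.

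The depth differed between the libraries. Accepted reads ranged from 1897490 (6h-2) to 7657222 (0.5h-2), and reads that matched a miRNA hairpin from 439336 (6h-1) to 4108370 (24h-2). Both 6 h libraries stood apart. 6h-1 had the lowest miRNA share of accepted reads (10.1%) and 6h-2 the highest (69.6%). Over 221 arms whose count reached 10 in all 8 libraries, the nearest library by Pearson correlation of log2 CPM, given as a description, was one of the same time course for all 8 libraries, and one of the other phase for 7 of them. 0.5h-1 was nearest to 24h-1 (r = 0.992) and 1h-1 to 6h-1 (r = 0.958), and 0.5h-2 was nearest to 24h-2 (r = 0.961). 6h-2 reached at most r = 0.881, with 24h-2. The mean r was 0.927 over the 8 pairs of an early and a late library within a time course, 0.920 over the 4 pairs of the same phase within a time course, and 0.843 over the 8 pairs of the same phase across time courses. miR-124 and miR-128, both enriched in neurons, were among the 10 most abundant arms of these brain libraries. miR-1a, the muscle miRNA, was read at 4778 to 15332 CPM and the liver-linked miR-192 at 3369 to 23105 CPM.

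The 10 arms with the highest mean CPM over the 8 libraries were let-7f, let-7g, let-7c, miR-29a, miR-128, miR-124, miR-101a, miR-143, miR-1839 and miR-140, each with its major arm. let-7f-5p stood at 70788, 74953, 47828 and 64331 CPM at 0.5, 1, 6 and 24 h in time course 1 and at 185316, 167669, 453742 and 407182 CPM in time course 2. Both late libraries lay below both early ones in time course 1 and above them in time course 2, and the fit over both gave a log2 fold change 0.45 ± 0.45 SE (edgeR unadjusted p = 0.334, adjusted p = 0.978). let-7g-5p stood at 42113, 26518, 10334 and 47583 CPM at 0.5, 1, 6 and 24 h in time course 1 and at 147661, 168670, 166257 and 215849 CPM in time course 2. Its lowest library was 6h-1 and its highest 24h-2, both late, and the log2 fold change 0.014 ± 0.49 SE was close to 0. let-7c-5p stood at 72729.5, 32629.5, 14189.9 and 84954 CPM at 0.5, 1, 6 and 24 h in time course 1 and at 99352, 87959, 84788 and 170718 CPM in time course 2. 6h-1 was again the lowest library and 24h-2 the highest (log2 fold change 0.18 ± 0.55 SE).

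miR-29a-3p stood at 64897, 20349.5, 12294 and 66402 CPM at 0.5, 1, 6 and 24 h in time course 1 and at 99623, 46944, 159094 and 62429.6 CPM in time course 2. This miRNA, known to repress extracellular matrix and neuronal BH3-only genes, was lowest and highest in the 6 h libraries, 6h-1 and 6h-2 (log2 fold change 0.24 ± 0.60 SE). miR-124-3p stood at 29921, 76519, 62103 and 36569.7 CPM at 0.5, 1, 6 and 24 h in time course 1 and at 38762, 22858, 137797 and 24793 CPM in time course 2. miR-124, which represses non-neuronal transcripts in neurons, was highest in 6h-2 and at 24 h lay within the early range of its own time course in both time courses (log2 fold change 0.65 ± 0.61 SE, edgeR unadjusted p = 0.307, adjusted p = 0.978). miR-128-3p stood at 55742, 65187, 66593 and 61108 CPM at 0.5, 1, 6 and 24 h in time course 1 and at 47055, 54808, 91248 and 47715 CPM in time course 2. miR-128, which is known to dampen neuronal excitability, varied least of these 10 arms, less than 2-fold between its lowest and highest library (log2 fold change 0.26 ± 0.41 SE).

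miR-101a-3p stood at 85359, 49978, 83809 and 93099.5 CPM at 0.5, 1, 6 and 24 h in time course 1 and at 5821, 29445, 32069.5 and 15148 CPM in time course 2. The libraries of time course 1 all lay above those of time course 2, as they did for miR-143, and the phases overlapped (log2 fold change 0.40 ± 0.52 SE). miR-143-3p stood at 59688, 56113, 113457 and 70527 CPM at 0.5, 1, 6 and 24 h in time course 1 and at 8168, 15555, 18037 and 7531 CPM in time course 2. miR-143, a miRNA of vascular smooth muscle, was higher in both late than in both early libraries of time course 1 only, and its phases overlapped in time course 2 (log2 fold change 0.39 ± 0.46 SE). miR-1839-5p stood at 25809, 8979.9, 9545 and 24042 CPM at 0.5, 1, 6 and 24 h in time course 1 and at 30519.5, 23844, 19233 and 26456 CPM in time course 2. miR-140-3p stood at 15754, 33589, 44643 and 16981 CPM at 0.5, 1, 6 and 24 h in time course 1 and at 8514, 10656, 10042 and 9245 CPM in time course 2. Their log2 fold changes were -0.15 ± 0.48 (SE) and 0.16 ± 0.46 (SE), and for both the early and late libraries overlapped in each time course. None of the 10 arms had an unadjusted p under 0.05 (edgeR).

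**Figure D1:**
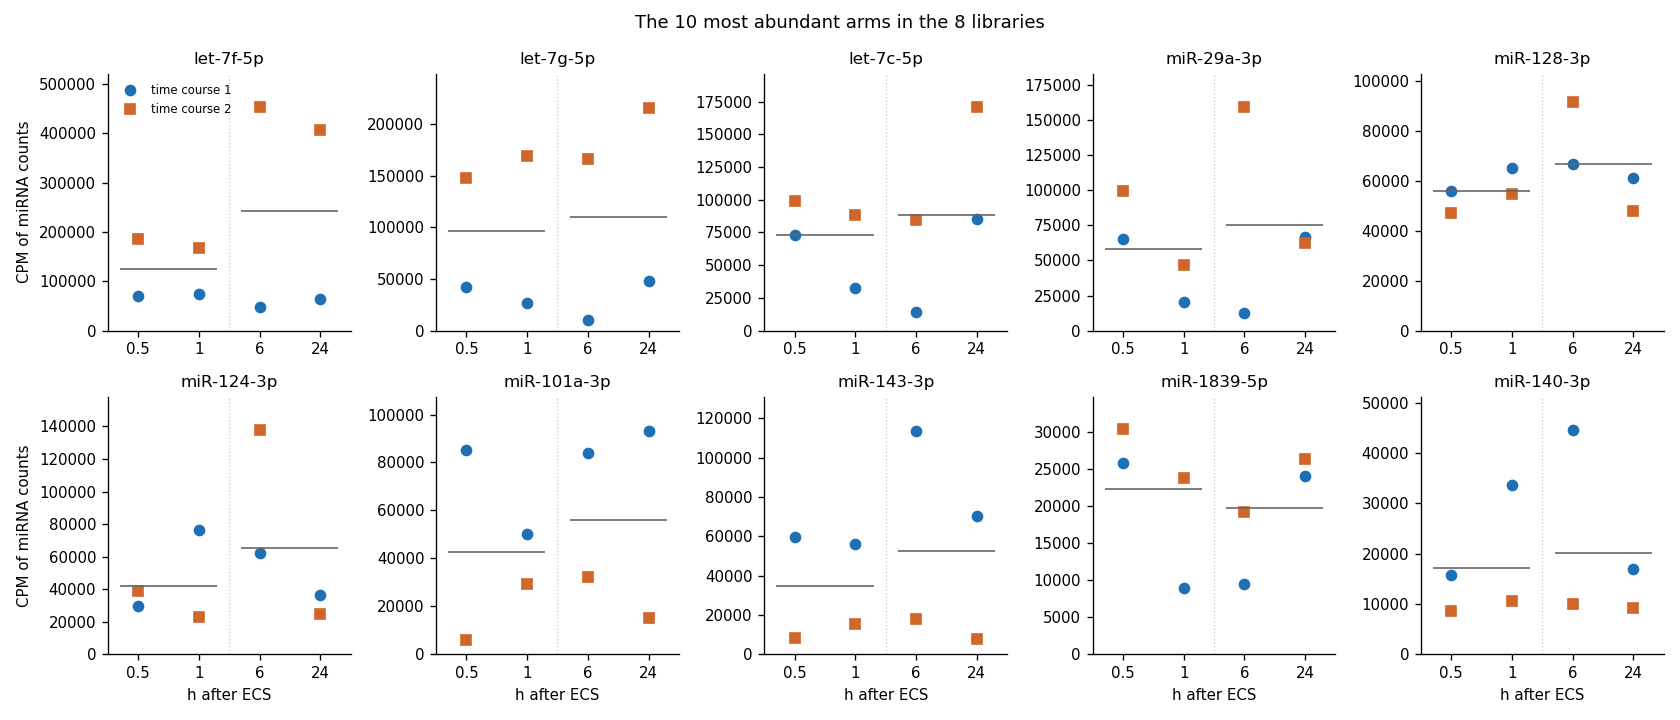
CPM of the 10 most abundant arms (y axis, from 0) at 0.5, 1, 6 and 24 h after ECS (x axis, evenly spaced), 1 point per library, circles for time course 1 and squares for time course 2, with a line at the mean of the 4 early and the 4 late libraries. For let-7f-5p the late libraries of time course 2 reached 453742 and 407182 CPM, whereas those of time course 1 lay below their early libraries.

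Fewer than 5 arms passed in each direction, so the 5 with the smallest unadjusted p are given in each, as values that did not pass. Among those higher late, miR-6236-5p stood at 41.1, 9.17, 176 and 20.5 CPM at 0.5, 1, 6 and 24 h in time course 1 and at 47.9, 15.1, 237 and 285 CPM in time course 2. 24h-1 lay within the early range while the other 3 late libraries lay above it (log2 fold change 2.50 ± 0.77 SE, edgeR unadjusted p = 0.00624, adjusted p = 0.978). Its 1536 counts over the 8 libraries came from 95 tags (distinct read sequences) with 31 different starts, and the most abundant start held 24.7% of them, whereas for let-7f-5p 99.9% of counts shared a start. Its 3 most abundant tags show this, each shifted by 1 base.
Tag A, 141 counts: aaatggatggcgctggagcg
Tag B, 131 counts: aaaatggatggcgctggagc
Tag C, 117 counts: gaaaatggatggcgctggag
The hairpin lies on the plus strand of chromosome 9 in no other annotated gene, and none of the tags matched another GENCODE transcript exactly. Sequences outside the GENCODE transcripts were not searched, so the RNA these tags came from is uncertain.

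miR-6240-3p stood at 33.2, 7.55, 71.7 and 17.6 CPM at 0.5, 1, 6 and 24 h in time course 1 and at 8.87, 6.12, 27.9 and 22.0 CPM in time course 2. The late libraries lay above the early ones in time course 2 only (log2 fold change 1.41 ± 0.64 SE, edgeR unadjusted p = 0.0466, adjusted p = 0.978), and its counts were also spread, over 13 starts. miR-467a-3p stood at 0.978, 7.01, 17.9 and 2.46 CPM at 0.5, 1, 6 and 24 h in time course 1 and at 1.11, 0.255, 40.2 and 2.71 CPM in time course 2. These values rest on few counts, 2, 13, 10 and 6 in time course 1 and 4, 1, 36 and 8 in time course 2. The same tags matched miR-467d-3p, so the arms have the same values and cannot be told apart. Both belong to the hairpin cluster in an intron of Sfmbt2 on chromosome 2. Each time course was highest at 6 h, and 24h-1 lay within the early values of its time course (log2 fold change 2.95 ± 1.19 SE, edgeR unadjusted p = 0.0271, adjusted p = 0.978). Without 6h-2 the log2 fold change was 1.38. miR-301-3p stood at 33.7, 39.9, 126 and 14.7 CPM at 0.5, 1, 6 and 24 h in time course 1 and at 6.10, 0.766, 59.2 and 5.75 CPM in time course 2. miR-301a, from an intron of Ska2, was also highest at 6 h in both time courses (log2 fold change 2.00 ± 0.96 SE, edgeR unadjusted p = 0.0559, adjusted p = 0.978), and without the 6 h libraries its log2 fold change was -0.21.

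Among arms lower late, miR-341-3p stood at 1459, 1952, 1171 and 748 CPM at 0.5, 1, 6 and 24 h in time course 1 and at 1879, 968, 118 and 669 CPM in time course 2. Both late libraries lay below both early ones in each time course, although 6h-1 was above the lowest early library, 1h-2 (log2 fold change -1.34 ± 0.60 SE, edgeR unadjusted p = 0.0426, adjusted p = 0.978). miR-30c-5p stood at 21.5, 54.5, 16.1 and 14.3 CPM at 0.5, 1, 6 and 24 h in time course 1 and at 103, 137, 48.0 and 81.8 CPM in time course 2. miR-30c, of a family known to target the autophagy gene Becn1, showed the same order within each time course (log2 fold change -1.09 ± 0.54 SE, edgeR unadjusted p = 0.0614, adjusted p = 0.978), with time course 2 higher at each of the 4 times. Its tags all matched the noncoding gene Gm27028, an exon of which holds 1 of its hairpins.

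miR-1843b-3p stood at 20.04, 69.6, 5.38 and 8.19 CPM at 0.5, 1, 6 and 24 h in time course 1 and at 9.14, 27.0, 6.70 and 15.6 CPM in time course 2. miR-1843a-3p stood at 4.89, 29.1, 0 and 3.28 CPM at 0.5, 1, 6 and 24 h in time course 1 and at 8.87, 16.3, 10.1 and 6.09 CPM in time course 2. The late libraries lay below the early ones in time course 1 only, with log2 fold changes of -1.62 ± 0.71 (SE) and -1.68 ± 0.82 (SE), and all of the counts of both arms also matched the small Cajal body RNAs annotated as Scarna3a (miR-1843b) and Scarna3b (miR-1843a), so that the RNA they came from is uncertain. miR-3095-3p stood at 0, 0, 0 and 0 CPM at 0.5, 1, 6 and 24 h in time course 1 and at 14.7, 16.6, 0 and 4.74 CPM in time course 2. It had no count in time course 1, so its value (log2 fold change -2.35 ± 1.11 SE, edgeR unadjusted p = 0.0596, adjusted p = 0.978) came from the second time course.

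**Figure D2:**
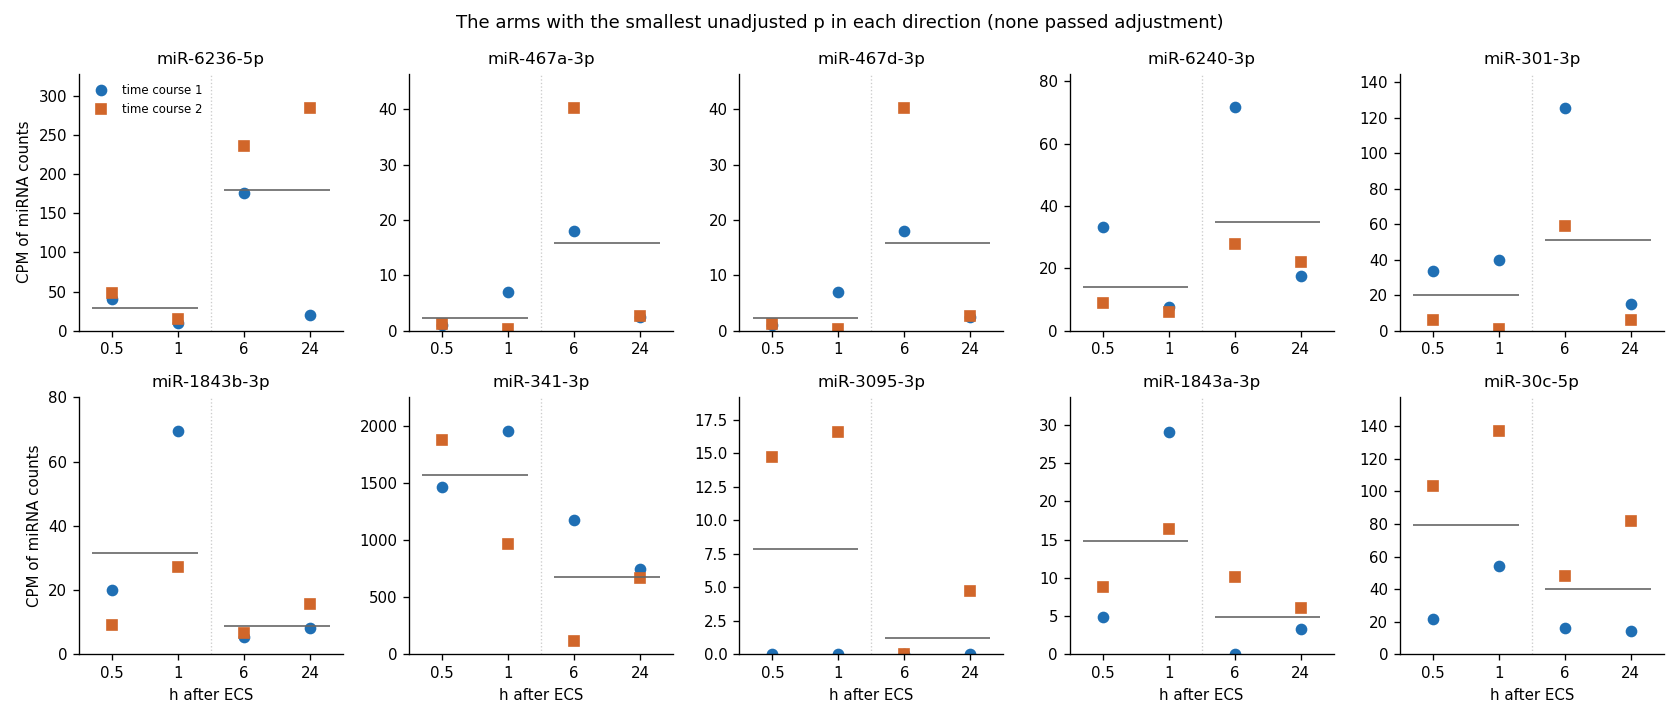
CPM (y axis, from 0) of the 5 arms higher late (upper row) and the 5 lower late (lower row) with the smallest unadjusted p at 0.5, 1, 6 and 24 h after ECS (x axis, evenly spaced), 1 point per library, circles for time course 1, squares for time course 2 and lines for phase means. In no panel do the 4 late libraries lie apart from the 4 early ones.

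The time courses were then set side by side. Both late libraries lay above or below both early ones for 87 arms in time course 1 (28 higher, 59 lower) and for 180 in time course 2 (74 higher, 106 lower). In both time courses and in the same direction this held for 8 arms. The 1 arm that was higher (0.226% of arms) was miR-154-5p, at 1.08 to 13.4 CPM. In time course 1 that order rested on 1 count in 6h-1, against 3 and 2 counts in the early libraries. The 7 lower ones (1.58%) were miR-341-3p, miR-30c-5p, miR-181a-3p, miR-344-3p, miR-3076-3p, miR-494-3p and miR-764-3p, of which the last 5, like miR-154-5p, were named after their values were seen. miR-181a-3p stood at 296, 353, 226 and 275 CPM at 0.5, 1, 6 and 24 h in time course 1 and at 114, 133, 61.4 and 64.6 CPM in time course 2. This is the minor arm of the miR-181a hairpin, and its log2 fold change -0.67 ± 0.48 SE did not pass (edgeR unadjusted p = 0.182, adjusted p = 0.978). In opposite directions it held for 19 arms (4.29%), among them let-7f-5p, miR-26a-5p and miR-27b-3p, all lower late in time course 1 and higher late in time course 2.

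miR-26a-5p stood at 3075, 3119, 2443 and 2816 CPM at 0.5, 1, 6 and 24 h in time course 1 and at 7336, 3393, 15583 and 8688 CPM in time course 2. miR-26a, whose hairpins lie in the phosphatase genes Ctdspl and Ctdsp2, had late minus early differences of mean log2 CPM of -0.24 in time course 1 and 1.22 in time course 2. miR-27b-3p stood at 3815, 3954, 3544 and 3669.7 CPM at 0.5, 1, 6 and 24 h in time course 1 and at 1555, 2985, 4626 and 3766 CPM in time course 2. Its differences were -0.11 and 0.95. For let-7f-5p they were -0.39 and 1.29, with an interaction of phase and time course at an edgeR unadjusted p of 0.0434 and an adjusted p of 0.869. The interaction called 0% of arms after adjustment, and 17 arms (3.84%) had an unadjusted p under 0.05 (DESeq2 called 0, with 20). Late minus early had the same sign in both time courses for 194 of 443 arms (43.8%), and across arms, which are not independent replicates, the differences of the time courses had a Spearman rho of -0.14. The median size of the difference was 0.39 in time course 1 and 0.83 in time course 2.

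**Figure D3:**
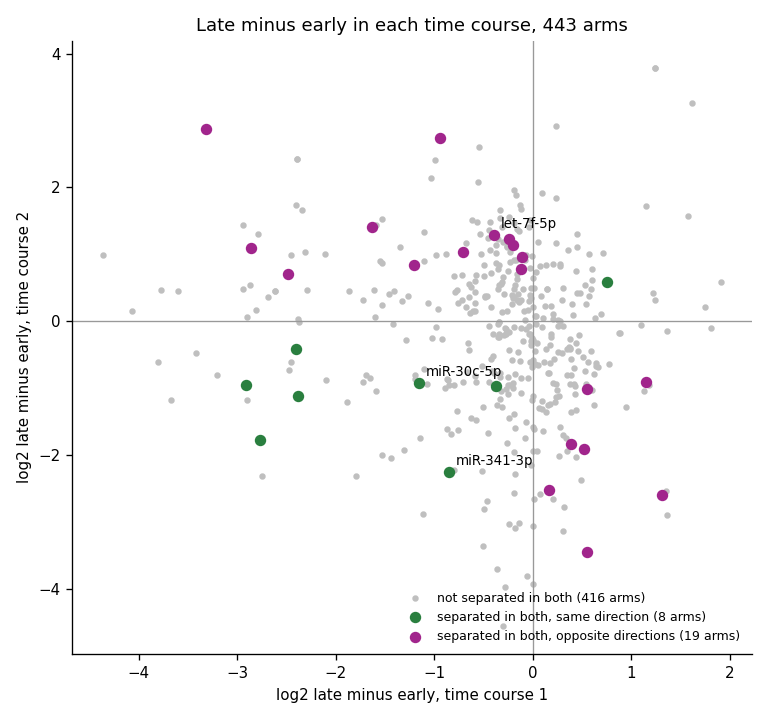
Late minus early on the log2 scale in time course 1 (x axis) and time course 2 (y axis) for the 443 arms, with 8 arms (green) whose late libraries were apart from the early ones in the same direction in both time courses and 19 (purple) in opposite directions. The points spread further along the y axis, and miR-341-3p and miR-30c-5p lie at the lower left, let-7f-5p at the upper left.

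The times within each phase were then compared. Between 24 h and 6 h edgeR called 0% of arms (smallest adjusted p = 0.373) but 50 arms, 11.3%, had an unadjusted p under 0.05, 29 of them higher at 24 h and 21 lower. Between 1 h and 0.5 h edgeR also called 0%, and 5 arms, 1.13%, had an unadjusted p under 0.05 (DESeq2 called 0, with 8). Against the early libraries, 6 h alone gave 55 of 428 arms (12.9%) at an unadjusted p under 0.05 and 24 h alone 10 of 440 (2.27%), and neither called an arm after adjustment. Both 6 h libraries lay outside the range of the other 6 libraries for 43 arms, 13 above and 30 below (9.71%). For 24 h this held for 6 arms (1.35%), for 1 h for 10 (2.26%) and for 0.5 h for 5 (1.13%). The share expected by chance was not computed. The 6 h libraries include the one with the fewest miRNA reads and the one with the fewest accepted reads, and the part of depth in these counts was not tested.

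DESeq2 called 3 arms between 24 h and 6 h (0.677% of arms, each with an adjusted p of 0.0488), which were named after their values were seen. miR-1298-5p stood at 157, 253, 52.0 and 132 CPM at 0.5, 1, 6 and 24 h in time course 1 and at 166, 28.8, 12.3 and 653 CPM in time course 2. In both time courses 24 h was above 6 h (log2 4.07 ± 1.34, SE, edgeR adjusted p = 0.373), and 29 and 11 counts stood behind the 6 h values. This arm also varied widely outside the comparison. Without TMM scaling 3h-1 stood at 3532 CPM and 3h-2 at 7.23 CPM, against 8.32 to 470 CPM in the 8 libraries. miR-674-5p stood at 182, 52.9, 34.1 and 195 CPM at 0.5, 1, 6 and 24 h in time course 1 and at 369, 174, 21.2 and 240.5 CPM in time course 2. It too was lowest at 6 h in each time course (log2 2.91 ± 0.86, SE, edgeR adjusted p = 0.373). miR-142a-5p stood at 2149.6, 5136, 7712 and 903 CPM at 0.5, 1, 6 and 24 h in time course 1 and at 676, 183, 3419 and 364 CPM in time course 2. miR-142a, a miRNA of blood-forming and immune cells, was highest at 6 h in each time course and lower at 24 h (log2 -3.18 ± 0.95, SE, edgeR adjusted p = 0.373).

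Part of the markers of other cells moved with the 6 h libraries. The 6 blood cell miRNAs summed to 2704, 5610.1, 8695 and 1171 CPM at 0.5, 1, 6 and 24 h in time course 1 and to 840.1, 361, 3746 and 566 CPM in time course 2, highest at 6 h in both. Most of this was miR-142a-5p itself, 88.7% of the sum in 6h-1 and 91.3% in 6h-2, and without it the sums were 554, 475, 983 and 268 CPM and 164, 178, 327 and 201 CPM. Of the 4 tested members 2 were highest at 6 h in both time courses, miR-142a and miR-144. miR-144-3p stood at 425, 359.7, 889.6 and 131 CPM at 0.5, 1, 6 and 24 h in time course 1 and at 51.8, 6.38, 189.9 and 27.1 CPM in time course 2. miR-451a-5p stood at 47.4, 21.03, 50.2 and 29.9 CPM at 0.5, 1, 6 and 24 h in time course 1 and at 49.6, 43.1, 33.5 and 99.4 CPM in time course 2. miR-486a-5p stood at 80.6, 90.6, 43.0 and 105 CPM at 0.5, 1, 6 and 24 h in time course 1 and at 61.0, 124, 104 and 71.7 CPM in time course 2. Neither miR-451a nor miR-486a was highest at 6 h in both time courses. In this list miR-451a, miR-144, miR-486a and miR-142a were tested, and miR-223 (6 counts over the 8 libraries) and miR-150 (41 counts) did not pass the count minimum. The 10 choroid plexus and ependymal miRNAs, of which 7 were tested, summed to 7079.7, 4316, 3099 and 7226 CPM in time course 1 and to 32503, 5061, 2716 and 29456 CPM in time course 2, lowest at 6 h in both. That order came from miR-34c-5p, and without it the sums were 482, 1533, 529 and 561 CPM and 1412, 314, 809.8 and 5453 CPM, lowest at 6 h in neither time course. Of the 7 tested members 3 were lowest at 6 h in both time courses, miR-34c, miR-1298 and miR-764, whereas miR-448 was not. miR-448-3p stood at 235, 1218, 419.7 and 313 CPM at 0.5, 1, 6 and 24 h in time course 1 and at 948, 194, 765 and 4303 CPM in time course 2. miR-211, a defining member of the list, had no count. miR-1298 and miR-142a are members of these lists. The part of cells other than those of the hippocampus proper in the 24 h against 6 h values was not tested, and fewer cells of a type cannot be told apart from less RNA per cell in such bulk samples.

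The late minus early values moved with the base composition of the miRNA. The GC content of the most abundant tag of each arm and the fitted log2 fold change had a Spearman rho of -0.44 across the 443 arms, a description, since arms share libraries. Of 112 arms with a GC content of 40% or less, 77 lay above 0, with a median log2 fold change of 0.33. The 174 arms over 40% to 50% had a median of -0.076, the 110 over 50% to 60% of -0.36, and of the 47 above 60% only 7 lay above 0, with a median of -0.60. The relation was found in time course 2 (rho = -0.51) and hardly in time course 1 (rho = 0.017). Against the 2 early libraries of its time course, 6h-2 had medians of 1.15, -0.016, -1.15 and -1.43 from the lowest to the highest class (rho = -0.53), and 24h-2 had 0.17, 0.0081, -0.17 and -0.45 (rho = -0.24). For 6h-1 rho was -0.0019 and for 24h-1 it was 0.090. Between 2 early libraries, 1h-2 minus 0.5h-2, it was 0.21. Without 6h-2 the rho of late minus early came to -0.19. Among single arms, GC-rich miR-341-3p stood at 118 CPM in 6h-2 against 1879 and 968 CPM early, and AU-rich let-7f-5p stood at 453742 CPM there. Other arms went against the trend in 6h-2. miR-124-3p, with a GC content of 57.1%, stood at 137797 CPM against 38762 and 22858 CPM early. miR-7a-5p, with 35%, had a log2 CPM difference of -1.81 from the early mean. With a GC offset for each library, chosen after seeing the data, edgeR again called 0 arms (8 at an unadjusted p under 0.05). The log2 fold change of miR-341-3p then came to -0.52 in place of -1.34, and that of miR-1843b-3p to -1.04 in place of -1.62.

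**Figure D4:**
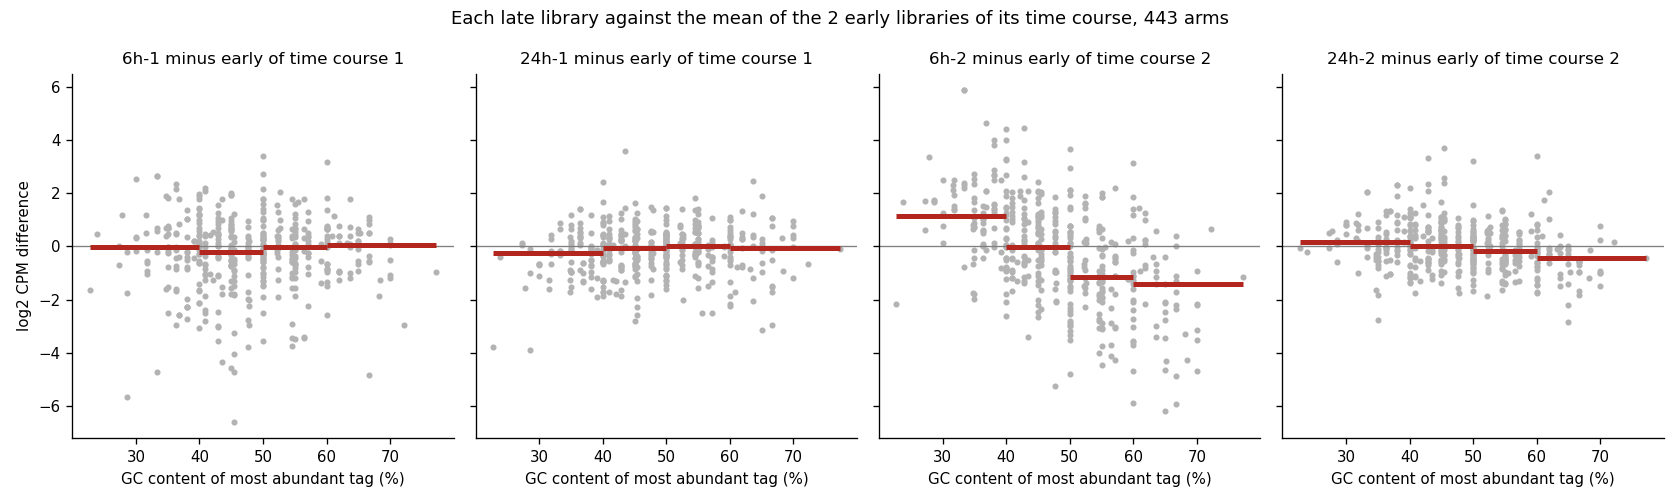
Difference in log2 CPM of each late library from the mean of the 2 early libraries of its time course (y axis) against the GC content of the most abundant tag in percent (x axis) for 443 arms, with red bars at the median of 4 GC classes. The medians step down from 1.15 to -1.43 in 6h-2 and stay within 0.24 of 0 in 6h-1 and 24h-1.

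The miRNAs were next grouped by family, cluster and known role, each by its major arm in these libraries, the one with more counts. The members named as the lowest or highest of a list were picked after their values were seen. No member of any list passed the test, and the counts stand beside the 196 of 443 arms (44.2%) above 0 and the median of -0.096 over all arms. In the let-7 family, which restrains proliferation and growth genes, all 9 of 9 tested arms had a log2 fold change above 0 and the median was 0.33, from let-7i (0.013) and let-7g (0.014) to let-7d (0.48). The family summed to 214357, 160591, 94841 and 227463 CPM at 0.5, 1, 6 and 24 h in time course 1 and to 479008, 477265, 750989 and 889896 CPM in time course 2, so that the late values were both the lowest and the highest. Its members differ by few bases, and the reads of tags they share were divided among them. With total count scaling, which lowers all arms, its median was 0.045 and 5 of the 9 arms lay above 0, let-7b, let-7c, let-7g and let-7i having values below 0. For the miR-26 and miR-101 families 4 of 4 tested arms lay above 0 and the median was 0.44, with miR-26b at 0.75, and for miR-23, miR-27 and miR-24 5 of 5 tested arms lay above 0 and the median was 0.49. For the miR-15/16 family 5 of 6 tested arms lay above 0 and the median was 0.37, with miR-15b at 1.41 ± 1.13 (SE) and miR-16 at 0.15. The late times differed in these lists. Against the early libraries, 6 h alone and 24 h alone gave medians of 0.97 and 0.029 for miR-23, miR-27 and miR-24. They were 0.53 and 0.033 for miR-15/16, 0.49 and 0.25 for miR-26 and miR-101, and -0.28 and 0.65 for let-7.

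Other families had medians below 0, and here too the late times differed. Against the early libraries, 6 h alone and 24 h alone gave medians of -1.27 and -0.18 for miR-99/100 and miR-125. They were -1.14 and -0.29 for the miRNAs of Meg3 and Rtl1, and -0.69 and -0.058 for miR-30. For miR-17/92 and miR-106b/25 the sign differed, at -0.93 and 0.11. For the miR-99/100 and miR-125 families, the first of which is known to target the mTOR pathway, 0 of 5 tested arms lay above 0 and the median was -0.61, with miR-125a at -0.89 and miR-99b at -0.62 ± 0.53 (SE). miR-99b-5p stood at 6484, 6792, 2775 and 6458 CPM at 0.5, 1, 6 and 24 h in time course 1 and at 1097, 4501, 1278 and 2132 CPM in time course 2. For the miRNAs of Meg3 and Rtl1, transcripts of the imprinted Dlk1-Dio3 region on chromosome 12, 1 of 11 tested arms lay above 0 and the median was -0.49. miR-127-3p stood at 3188, 1352, 1074 and 4439 CPM at 0.5, 1, 6 and 24 h in time course 1 and at 17148, 23567, 1520.1 and 7331 CPM in time course 2. miR-127, antisense to Rtl1, was lowest at 6 h in both time courses, and its 24 h value was the highest of time course 1 (log2 fold change -0.96 ± 0.75 SE). miR-433-3p stood at 1269, 1011, 900.3 and 1201 CPM at 0.5, 1, 6 and 24 h in time course 1 and at 5186, 9550.1, 1732 and 6428 CPM in time course 2. miR-433 is also antisense to Rtl1 and each library of time course 2 lay above all of time course 1, 6h-2 by the least (log2 fold change -0.49 ± 0.52 SE).

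The neighbouring cluster from miR-379 to miR-410, which contains miRNAs tied to dendrite growth, held both signs, as 13 of 30 tested arms lay above 0 and the median was -0.21, and the values ran from miR-539-3p at -1.66 to miR-496a-3p at 1.29. miR-410-3p stood at 600.2, 641, 473 and 623 CPM at 0.5, 1, 6 and 24 h in time course 1 and at 826, 279.7, 1474 and 561 CPM in time course 2. miR-134-5p stood at 519, 364, 276 and 741 CPM at 0.5, 1, 6 and 24 h in time course 1 and at 172, 179.7, 45.8 and 111 CPM in time course 2. miR-134, which represses Limk1 in dendrites, was lowest at 6 h in both time courses (log2 fold change -0.47 ± 0.57 SE). miR-411-5p stood at 2012, 5098, 4129 and 2090.2 CPM at 0.5, 1, 6 and 24 h in time course 1 and at 678, 897, 4205 and 1485 CPM in time course 2. The highest late value was in 6h-2 for miR-410 and miR-411, and the clustered miRNAs summed to 14347 to 26441 CPM early and 14268 to 28213 CPM late.

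For the activity-regulated miRNAs 1 of 8 tested arms lay above 0 and the median was -0.37. miR-132-5p stood at 187, 303, 235 and 150.3 CPM at 0.5, 1, 6 and 24 h in time course 1 and at 115, 189, 159.7 and 105 CPM in time course 2. miR-212-5p stood at 632, 608, 721 and 526 CPM at 0.5, 1, 6 and 24 h in time course 1 and at 2123, 3750.5, 668 and 2303 CPM in time course 2. Both hairpins lie in 1 intron of 1700016P03Rik on chromosome 11, a locus under CREB control, and the 5p arm had more counts for both. The phases overlapped for both 5p arms, with log2 fold changes of -0.28 ± 0.50 and -0.49 ± 0.53 (SE). Their 3p arms are given as log2 CPM differences of each late library from the early mean of its time course. For miR-132-3p these were -0.50 (6h-1), -0.20 (24h-1), 0.82 (6h-2) and 0.75 (24h-2). For miR-212-3p they were -0.97, 0.068, 0.66 and 1.04 in the same order. The count of 1 of 8 arms above 0 holds the 5p arms of both. Their 3p arms lay below the early mean in 6h-1 and above it in 6h-2 and 24h-2, so the lean of this list depends on the arm counted. miR-485-5p had the lowest value of the list, -1.31 ± 0.68 (SE). Among neuron-enriched miRNAs 7 of 13 tested arms lay above 0 and the median was 0.17, from miR-326-3p at -1.54 to miR-124-3p at 0.65. miR-138-5p stood at 16972, 5695, 11839 and 19832 CPM at 0.5, 1, 6 and 24 h in time course 1 and at 6006, 3215, 2479.5 and 3296 CPM in time course 2. miR-138, which limits spine growth, lay at -0.096 ± 0.52 (SE).

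Examples taken from the study's RT-PCR or array measurements were let-7f, miR-26a, miR-99b, miR-124, miR-181a, miR-410 and miR-134. In these libraries 4 of 7 tested arms lay above 0 and the median was 0.35. miR-181a-5p stood at 758, 3372, 2726 and 907 CPM at 0.5, 1, 6 and 24 h in time course 1 and at 2419, 1692, 1042 and 3004 CPM in time course 2. miR-181a, a regulator of GluA2, was highest in 1h-1 and lowest in 0.5h-1, both early libraries of the same time course (log2 fold change -0.10 ± 0.59 SE). Its relative miR-181b, with the same seed, lay at 0.17 ± 0.53 (SE).

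Values of the other families follow. For miR-181 2 of 4 tested arms lay above 0 and the median was -0.025, for miR-29 2 of 3 tested arms lay above 0 and the median was 0.24, for miR-17/92 and miR-106b/25 2 of 7 tested arms lay above 0 and the median was -0.47, and for miR-30 0 of 5 tested arms lay above 0 and the median was -0.19. In the miR-30 family the major arm here was the 3p arm for miR-30b, miR-30c and miR-30e. miR-30a-5p and miR-30d-5p lay at -0.29 ± 0.45 and -0.19 ± 0.45 (SE), miR-29c-3p at 0.53 ± 0.72, miR-25-3p at -0.25 ± 0.51 and miR-106b-5p at 0.17 ± 0.57. miR-99a-5p and miR-125b-5p, of the miR-99/100 and miR-125 families, lay at -0.39 ± 0.49 and -0.36 ± 0.44. With total count scaling the median turned below 0 for the neuron-enriched (-0.13), miR-29 (-0.044), vascular (-0.043), choroid plexus and ependymal (-0.16) and muscle (-0.17) lists, and the others kept their sign.

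Cell type markers are given for both phases. Oligodendrocyte miRNAs summed to 6334 to 18038 CPM early and 5549 to 16401 CPM late, nearly all of it miR-219a-3p, at 5488 CPM in 6h-2 and 16337 in 24h-2. Its log2 CPM differences from the early mean of the time course were -0.12 (6h-1), -0.11 (24h-1), -1.64 (6h-2) and -0.063 (24h-2). For the other arm, miR-219a-5p, which is not in the sum, they were 0.49, 0.31, 0.59 and -0.061 in the same order. The arms thus went opposite ways in 6h-2. Vascular miRNAs summed to 8254 to 59898 CPM early and 7728 to 113683 CPM late, and miR-126a-3p, of endothelium, had a log2 fold change of 0.0026. Microglial and inflammation-linked miRNAs summed to 943 to 5542 CPM early and 1001 to 6474 CPM late. miR-155-5p, the inflammatory member, had 1 count in the 8 libraries, and miR-146b-5p lay at -0.75 ± 0.57 (SE). Muscle miRNAs summed to 7466 to 12293 CPM early and 4812 to 15371 CPM late and liver miRNAs to 3594 to 16188 CPM early and 6853 to 23112 CPM late, and blood cell miRNAs to 361 to 5610.1 CPM early and 566 to 8695 CPM late. A single arm made up most of several of these sums, here as percent in 6h-1 and 6h-2. It was miR-143-3p (99.8% and 99.2%) for the vascular list and miR-21a-5p (98.7% and 97.0%) for the microglial list. For muscle it was miR-1a-3p (99.3% and 99.7%) and for liver miR-192-5p (99.97% and 96.3%). The microglial median log2 fold change of -0.68 is that of miR-146a-5p, whereas miR-21a-5p lay at 0.17. All 7 marker lists overlapped between the phases.

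**Figure D5:**
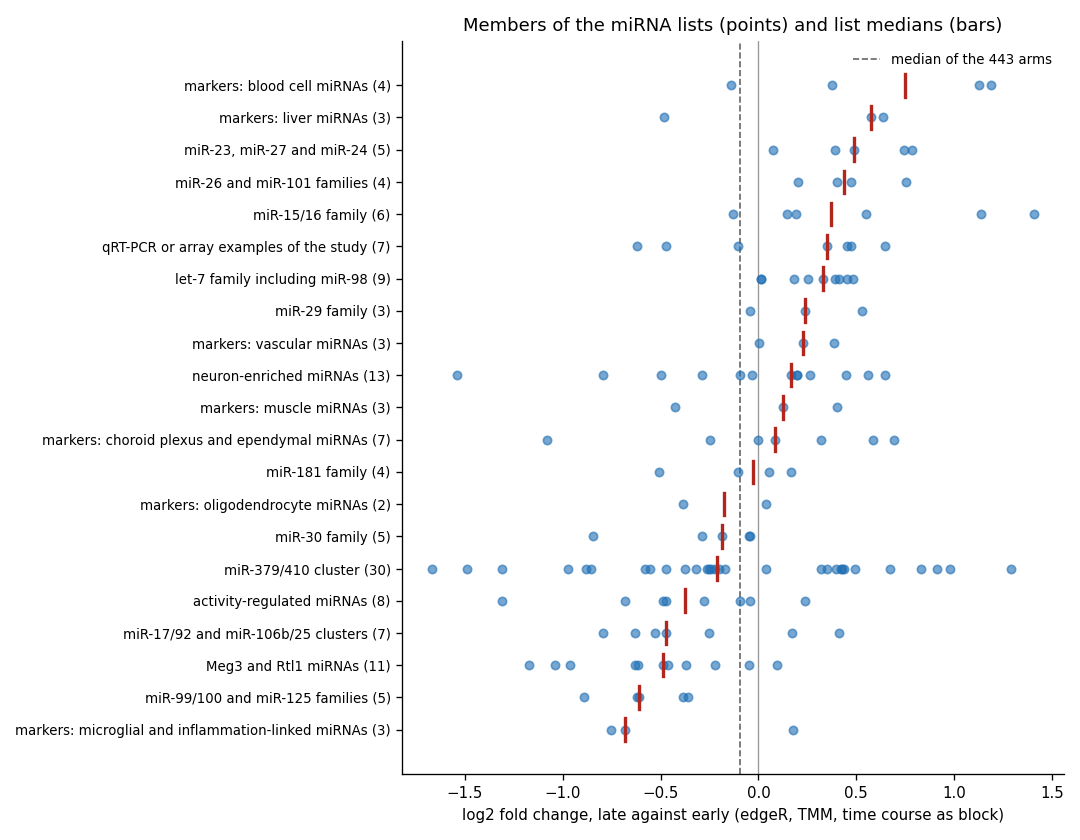
Fitted log2 fold change late against early (x axis) of the tested members (points) of each list (rows, number tested in brackets), with red bars at the list medians and a dashed line at the median of all 443 arms, -0.096. The medians run from -0.68 for the microglial and inflammation-linked to 0.75 for the blood cell miRNAs, and no arm passed the test. Some miRNAs are in more than 1 list.

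Finally, measures of whole libraries were compared, by exact permutation of the phases within time courses (36 arrangements, two-sided, smallest p 0.0556, so that p cannot fall under 0.05). The miRNA share of accepted reads was 39.8% ± 16.7 (SD, n = 4) early and 42.2% ± 26.3 (SD, n = 4) late (exact permutation p = 0.722). It was 27.9%, 23.2%, 10.1% and 32.7% at 0.5, 1, 6 and 24 h in time course 1, and 50.9%, 57.1%, 69.6% and 56.4% in time course 2. Tags of 18 or 19 nt, which are shorter than a full miRNA, made up 5.78% ± 5.87 (SD, n = 4) of miRNA counts early and 6.60% ± 7.04 (SD, n = 4) late (exact permutation p = 0.778), and were most frequent at 6 h in both time courses, at 16.9% and 3.78%. The minor arm share, the percentage of miRNA counts on the less abundant arm of a hairpin, was 2.28% ± 0.0517 (SD, n = 4) early and 1.75% ± 0.549 (SD, n = 4) late (exact permutation p = 0.167). In time course 2 it was 2.32% and 2.22% early against 1.40% and 1.20% late, and in time course 1 2.33% and 2.26% early against 2.39% and 2.01% late. The spread of the late libraries was thus larger than that of the early ones for this share, and the late minus early difference was -0.97 percentage points in time course 2 against -0.099 in time course 1.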

How the data were processed

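Size-selected small RNA from hippocampus was sequenced by the authors on an Illumina GAIIx after PCR without molecular identifiers. The authors deposited, for each library, every tag with its raw read count after adapter removal, not normalized. Here a tag was counted for a hairpin arm (GENCODE M21, GRCm38) when it matched exactly over its full length, and the reads of a tag found in more than 1 miRNA were shared out evenly, then rounded, which concerned 0.899% to 4.67% of miRNA reads. Exact matching leaves out reads with sequencing errors or added 3′ bases. Counts of the 8 libraries (439336 to 4108370 miRNA reads, counting error only) were tested with edgeR 4.0.16 (quasi-likelihood, TMM, Benjamini-Hochberg, adjusted p under 0.05) in R 4.3.3, with phase as the factor and time course as a block, on arms with 10 counts in 2 libraries, and checked on simulated data. SE were computed from F, so they can be unstable where a log2 fold change is near 0, and CPM are TMM-scaled. DESeq2 1.42.0, other scalings, filters, matching rules, groupings and leaving out each library were alternatives. The replicate numbers mark the study's time courses, and deviations of same-numbered libraries from their time means correlated at 0.39 to 0.82 over the 6 pairs of times, so the block was kept. No 2 libraries agreed within sampling noise. Each library came from a separate mouse. The members and lists were chosen with earlier results of these data known. The arms named were the 10 most abundant, up to 10 called in each direction or, with fewer than 5, the 5 with the smallest unadjusted p, let-7f, miR-26a, miR-99b, miR-124, miR-181a, miR-410, miR-134, miR-132 and miR-212, and the 2 most abundant of each list, by major arm. Library shares and figures used Python 3.11.15, scipy 1.17.1 and matplotlib 3.10.9. Coordinates are of GRCm38, whereas the authors mapped their reads to the preceding NCBI mouse assembly.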

Additional observations from a re-analysis of the deposited data

Results flagged for a closer look

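A single library lay far from the other 3 of its phase in 15 of 122 groups of values looked at. Far means that the gap to its nearest neighbour over the range was above Dixon's 95% limit. That limit would flag about 1 in 20 groups, or 6.1 here, if each group were drawn from a single normal distribution. Each group joined both time courses, and groups sharing libraries are not independent, so 15 against 6.1 cannot be read as an excess. miR-467a-3p and miR-467d-3p share all tags. In 1h-1, miR-467a-3p stood at 7.01 CPM against 0.255 to 1.11 in the other 3 early libraries, miR-467d-3p stood at 7.01 CPM against 0.255 to 1.11 in the other 3 early libraries, miR-181b-5p stood at 1963 CPM against 486 to 679 in the other 3 early libraries. In 0.5h-1, miR-6240-3p stood at 33.2 CPM against 6.12 to 8.87 in the other 3 early libraries. In 24h-2, miR-3095-3p stood at 4.74 CPM against 0 in the other 3 late libraries, miR-212-5p stood at 2303 CPM against 526 to 721 in the other 3 late libraries, miR-433-3p stood at 6428 CPM against 900.3 to 1732 in the other 3 late libraries, miR-25-3p stood at 724 CPM against 178 to 265 in the other 3 late libraries, miR-219a-3p stood at 16337 CPM against 5488 to 6560.3 in the other 3 late libraries, miR-448-3p stood at 4303 CPM against 313 to 765 in the other 3 late libraries. In 0.5h-2, miR-26a-5p stood at 7336 CPM against 3075 to 3393 in the other 3 early libraries, miR-34c-5p stood at 31091 CPM against 2783 to 6598 in the other 3 early libraries. In 6h-2, miR-410-3p stood at 1474 CPM against 473 to 623 in the other 3 late libraries. In 24h-1, miR-30a-5p stood at 7441 CPM against 4207 to 4496 in the other 3 late libraries. In 6h-1, miR-322-3p stood at 4744 CPM against 840.5 to 1434 in the other 3 late libraries. Of these, 6 concern 24h-2 and 3 concern 1h-1. No cause was tested.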

How the results depend on the processing

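No arm was called late against early under any of the 22 alternatives tried, 2 to 55 arms having an unadjusted p under 0.05 (55 without both 24 h libraries, 23 without the count minimum), and dropping the time course block gave 0 calls (4 at an unadjusted p under 0.05) and changed no call. The interaction, 24 h against 6 h and 1 h against 0.5 h also gave 0 with total count scaling, whereas DESeq2 called 3 arms between 24 h and 6 h. The cause of that difference was not tested. Depth, above all of 6h-1, and 4 libraries a phase limit the precision. The rank correlation with GC content ran from -0.50 to -0.19 when 1 library was left out, and -0.19 was the value without 6h-2. The late minus early miRNA share was -3.22 to 8.09 percentage points with 1 library left out, below 0 without 24h-1 (-3.22) or 6h-2 (-0.88). The share of short tags was -2.28 to 3.92 points, below 0 without 0.5h-1 (-0.79) or 6h-1 (-2.28), and -2.94 without both 6 h libraries. Of 1263 values of the 58 named arms under the alternatives, 114 changed sign, for 34 arms, and none had an adjusted p under 0.05. With 10 or more counts in every library the log2 fold change turned to -0.021 for miR-126a-3p. With the 4 times as groups the log2 fold change turned to -0.11 for let-7g-5p, -0.029 for let-7c-5p, 0.0024 for miR-138-5p, -0.036 for miR-126a-3p. With the GC offset the log2 fold change turned to -0.076 for let-7g-5p, 0.11 for miR-99b-5p, 0.25 for miR-181a-5p, 0.21 for miR-138-5p, 0.11 for miR-30d-5p, 0.015 for miR-25-3p, -0.025 for miR-1a-3p. With all 12 libraries and 6 times as groups the log2 fold change turned to 0.023 for miR-1839-5p, 0.070 for miR-181a-5p, 0.11 for miR-138-5p. Without both 24 h libraries the log2 fold change turned to -0.89 for let-7g-5p, -1.08 for let-7c-5p, -0.22 for miR-29a-3p, -0.66 for miR-126a-3p, -0.16 for miR-21a-5p, -0.28 for miR-448-3p, -0.16 for miR-1a-3p. Without both 6 h libraries the log2 fold change turned to -0.21 for miR-301-3p, -0.37 for miR-124-3p, -0.13 for miR-143-3p, 0.25 for miR-1839-5p, -0.24 for miR-140-3p, 0.13 for miR-134-5p, 0.24 for miR-138-5p, -0.46 for miR-376a-3p, -0.021 for miR-181b-5p, 0.16 for miR-25-3p, -0.19 for miR-338-3p, -0.74 for miR-144-3p, -0.97 for miR-142a-5p, 0.51 for miR-34c-5p, 0.043 for miR-206-3p, 0.21 for miR-122-5p. Matching the first 18 nt the log2 fold change turned to -0.13 for miR-24-3p, -0.13 for miR-126a-3p. Without the filter on low counts the log2 fold change turned to -0.00059 for miR-338-3p, -0.0086 for miR-126a-3p. Without the time course block the log2 fold change turned to 0.23 for miR-138-5p. With tags that match 1 miRNA only the log2 fold change turned to -0.041 for let-7g-5p, -0.0055 for miR-24-3p, -0.039 for miR-338-3p, -0.067 for miR-126a-3p. With total count scaling the log2 fold change turned to -0.28 for let-7g-5p, -0.11 for let-7c-5p, -0.044 for miR-29a-3p, -0.026 for miR-128-3p, -0.11 for miR-140-3p, -0.11 for miR-181b-5p, -0.078 for miR-101b-3p, -0.17 for miR-16-5p, -0.11 for miR-106b-5p, -0.21 for miR-24-3p, -0.22 for miR-338-3p, -0.29 for miR-126a-3p, -0.10 for miR-21a-5p, -0.17 for miR-1a-3p. With upper-quartile scaling the log2 fold change turned to 0.019 for miR-138-5p. Leaving out 1 library at a time, the sign changed for let-7g-5p (-0.52 to 0.35), let-7c-5p (-0.43 to 0.65), miR-29a-3p (-0.33 to 0.89), miR-128-3p (-0.040 to 0.44), miR-124-3p (-0.24 to 1.22), miR-1839-5p (-0.57 to 0.33), miR-140-3p (-0.21 to 0.47), miR-181a-5p (-0.61 to 0.56), miR-410-3p (-0.12 to 0.57), miR-138-5p (-0.46 to 0.24), miR-376a-3p (-0.26 to 1.03), miR-181b-5p (-0.12 to 0.68), miR-29c-3p (-0.16 to 1.29), miR-99a-5p (-0.62 to 0.054), miR-16-5p (-0.40 to 0.62), miR-106b-5p (-0.13 to 0.61), miR-25-3p (-0.66 to 0.0041), miR-24-3p (-0.18 to 0.53), miR-338-3p (-0.22 to 0.25), miR-126a-3p (-0.32 to 0.41), miR-142a-5p (-0.031 to 1.77), miR-21a-5p (-0.17 to 0.62), miR-448-3p (-0.48 to 1.62), miR-34c-5p (-1.14 to 0.49), miR-1a-3p (-0.10 to 0.34), miR-122-5p (-1.88 to 0.079).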

Other observations

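The untreated and 3 h libraries entered only the alternative fit of all 12 libraries, in which late was again set against early. Their values are given without TMM scaling as a frame for the early and late levels. let-7f-5p stood at 101292 (NT-1), 200816 (NT-2), 51724 (3h-1) and 225270 (3h-2) CPM, against 60699.9 to 307432 CPM in the 8 libraries. miR-124-3p stood at 261858 (NT-1), 26323 (NT-2), 65329 (3h-1) and 10148 (3h-2) CPM, against 17843 to 104194 CPM in the 8 libraries. miR-341-3p stood at 22748 (NT-1), 842 (NT-2), 2567 (3h-1) and 376 (3h-2) CPM, against 80.2 to 2659 CPM in the 8 libraries. miR-142a-5p stood at 8296 (NT-1), 563 (NT-2), 3074 (3h-1) and 157 (3h-2) CPM, against 183 to 9787 CPM in the 8 libraries. miR-1298-5p stood at 707 (NT-1), 22.4 (NT-2), 3532 (3h-1) and 7.23 (3h-2) CPM, against 8.32 to 470 CPM in the 8 libraries. miR-674-5p stood at 24.4 (NT-1), 103 (NT-2), 24.0 (3h-1) and 95.7 (3h-2) CPM, against 14.4 to 342 CPM in the 8 libraries. The untreated library NT-1 lay above all 8 libraries for miR-124-3p, miR-341-3p and miR-1298-5p, and NT-2 lay within their range for each of these arms. NT-1 also stood apart in its tags. Short tags made up 51.4% of its miRNA counts, against 1.69% in NT-2. The highest share in any other library was 16.9%, in 6h-1. The values of NT-1 therefore cannot be taken as a resting level, and the part of short tags in them was not tested. No comparison was made with these libraries.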
